A study of Mus musculus with 6 samples.

Results

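The genes of glycolysis, of the pentose phosphate pathway and of the response to low oxygen were examined in sorted LSK cells of mice that had lost Ash2l. The 41 genes were listed by name and by pathway, with earlier results of these data known, and comprise the enzymes from hexokinase to lactate dehydrogenase, the transporters of glucose and lactate, the regulators PFKFB and PDK, pentose phosphate enzymes, and the HIF axis with a few of its target genes. Of these, 34 had a probe set of their own among the 65956 on the array, and 3 (Gapdh, Pfkfb2 and Tkt) had only probe sets that also name another gene. The remaining 4, Gpi1, Eno1, Pfkfb1 and G6pdx, were not analysed here. Where a gene had several probe sets of its own, the brightest over the 6 arrays was taken.

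LSK cells (lin-, Sca-1+, Kit+) are the bone marrow fraction that contains hematopoietic stem and multipotent progenitor cells. The 3 KO samples came from mice with the genotype Ash2l exon4 fl/fl, MxCre, and the 3 control samples from Ash2l exon4 fl/fl mice without the transgene. Ash2l is a core subunit of the complexes that methylate histone H3 at lysine 4. All mice were injected 3 times on alternate days to induce Cre, with a compound that is poly(dIdC) in the sample labels and pIC at 10 mg/kg in the study's methods, at an age of 10 to 25 weeks, and marrow was taken on day 10. The Mx1 promoter that drives Cre responds to interferon in many cell types, so that the deletion is not confined to LSK cells, and only KO cells had Cre. The data do not state whether an array stands for 1 animal or a pool, so that the p-values measure the spread between these samples.

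Each array gave log2 signals from 40 ng of RNA. The probe set of Ash2l gives 1 signal for the whole gene, of which only exon 4 is floxed, and which exons its probes read was not examined. It was at 9.65, 9.63 and 9.65 in KO and at 10.76, 10.57 and 10.23 in control cells, in the order of the replicate numbers as in all lists of 3 values below. All KO arrays were below all controls, and the log2 fold change was -0.88 (standard error 0.15) at an adjusted p of 0.198 from limma. Of 9 measured LSK markers, 0 lay below the median probe set signal of 6.07, and Kit was at 11.93 to 12.92 over the 6 arrays, while 2 of the 11 listed markers, that of Sca-1 included, were not analysed here. No probe set of the whole array passed an adjusted p under 0.05, the smallest being 0.0528, whereas 3355 probe sets were higher and 3827 were lower at an unadjusted p under 0.05 from limma. Control replicate 3 stood apart from the other controls (r = 0.984 and 0.980, against 0.989 between control replicates 1 and 2) and correlated with the KO arrays at 0.986 to 0.989. Results that rest on it are therefore given with and without this array where leaving it out changed them. The array was singled out from these same data, and it is the control most like the KO arrays. Leaving it out therefore tends to widen the differences, and p-values without it do not carry their usual meaning. Without it, 1418 probe sets were higher and 914 lower at an adjusted p under 0.05 from limma, where none passed with all arrays.

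Cells take up glucose through transporters of the Slc2a family and trap it as a phosphate through hexokinase. Phosphofructokinase commits the sugar to glycolysis, and the enzymes from aldolase to pyruvate kinase turn it into pyruvate. Pyruvate is reduced to lactate by lactate dehydrogenase and exported, or enters the mitochondria unless the PDK kinases switch off pyruvate dehydrogenase. The pentose phosphate pathway branches off to supply NADPH and ribose. In low oxygen the prolyl hydroxylases of the Egln family no longer mark HIF-1α for degradation, and HIF dimers bind a short core sequence near many of these genes. Hematopoietic stem cells are known for a reliance on glycolysis that is sustained by HIF-1α and PDK.

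The HIF core was looked up in RefSeq promoters (GRCm38.p6, 250 bases before to 50 bases after the start site of each gene), as ACGTG or GCGTG on either strand. Where a gene had several start sites, only the most upstream was used, and the others were not searched. The palindrome CACGTG, the E-box, holds ACGTG on both strands and is counted in each direction. Of 33 promoters of the genes with their own probe set, 26 (78.8%) held a core, against 43.8% of 27025 promoters of all genes. ACGTG was found in 51.5% against 19.6%, GCGTG in 51.5% against 32.5%, and CACGTG in 18.2% against 7.24%. The promoters of these genes were also richer in G and C, with a median content of 62.3% against 52.7% over all genes. The promoter of Slc2a3 was not matched. The following stretches, printed 5′ to 3′ on the strand of the gene with the core matches in capitals, are shown because they belong to genes with the larger differences, with or without control replicate 3, and to Ldha and Bnip3 as textbook HIF targets.
Egln1 (chr8:124949305-124949394, minus strand): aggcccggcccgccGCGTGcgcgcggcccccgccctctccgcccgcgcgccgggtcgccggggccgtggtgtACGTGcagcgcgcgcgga
Bnip3 (chr7:138909532-138909631, minus strand): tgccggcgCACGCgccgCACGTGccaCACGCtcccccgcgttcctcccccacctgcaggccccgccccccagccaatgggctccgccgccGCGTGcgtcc
Slc16a1 (chr3:104638449-104638543, plus strand): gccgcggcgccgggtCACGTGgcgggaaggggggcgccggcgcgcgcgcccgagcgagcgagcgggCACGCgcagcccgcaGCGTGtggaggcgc
Ldha (chr7:46845649-46845778, plus strand): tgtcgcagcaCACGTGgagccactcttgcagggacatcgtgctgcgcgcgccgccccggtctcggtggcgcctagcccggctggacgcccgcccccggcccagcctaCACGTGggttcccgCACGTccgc
Pdk2 (chr11:95041477-95041511, minus strand): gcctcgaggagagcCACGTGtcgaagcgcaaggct
Pdk3 (chrX:93832191-93832265, minus strand): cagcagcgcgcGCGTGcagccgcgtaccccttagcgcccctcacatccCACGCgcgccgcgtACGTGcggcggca
Aldoc (chr11:78323008-78323037, plus strand): actccacctctgaggGCGTGgccttaccct
Taldo1 (chr7:141392065-141392094, plus strand): cgaccgtgacacgggGCGTGgtctatggca
Ldha, Slc16a1, Bnip3 and Pdk2 carry the E-box in these stretches. Egln1 and Pdk3 have both cores there without an E-box, and the stretches of Aldoc and Taldo1 have GCGTG alone. The promoter window of Aldoc also holds ACGTG on the opposite strand, at base 28 after the start site, outside the printed stretch. The promoter window of Vegfa, a textbook HIF target, held no core match, which says only that these letters are not in this window.

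**Figure D1:**
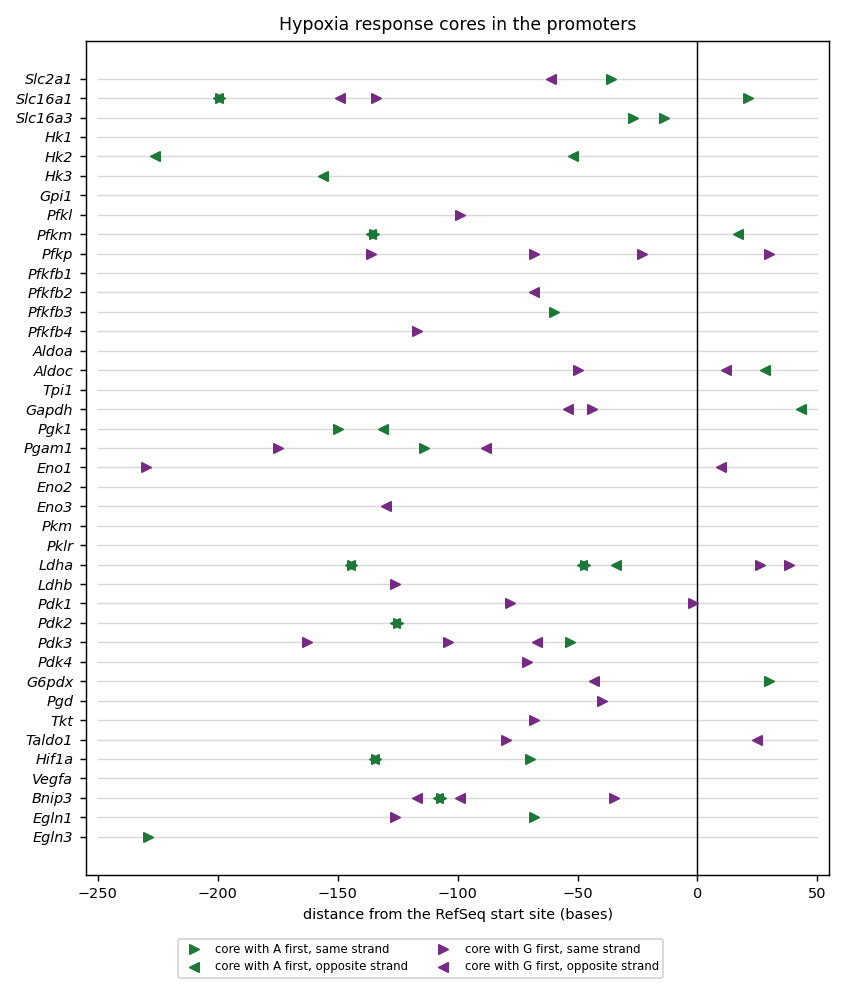
Position of core matches in the promoters of 40 of the listed genes, in bases from the RefSeq start site at 0. Each grey line is 1 promoter, arrows mark the first base of a match and its strand, and overlaid arrows in opposite directions are E-boxes; matches were found in 31 of the 40.

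Few of the genes differed between KO and control cells with all 6 arrays. At an unadjusted p under 0.05 from limma, 1 of the 34 was higher in KO (2.94%, against 5.09% of all probe sets) and 3 were lower (8.82%, against 5.80%). Of probe sets above the median signal, where 32 of the 34 genes lie, 8.03% were higher and 8.21% lower. The lower share of the 34 genes is near this background, and the higher share, which rests on 1 gene, is below it. All 3 KO arrays were above all controls for 1 gene (background 6.15%) and below them for 2 (background 9.15%). Among probe sets above the median signal these backgrounds were 8.49% and 10.4%. The adjusted p was under 0.05 for 0 of the 34. Log2 fold changes were above 0 for 17 genes and below 0 for 17, and their median was -0.03, as was the median of all probe sets. The median size of the change was 0.21 on the log2 scale, compared with 0.14 for all probe sets and 0.19 for probe sets above the median signal. The genes at p under 0.05 were Vegfa, Slc16a1 and Egln1, which were lower, and Taldo1, which was higher.

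**Figure D2:**
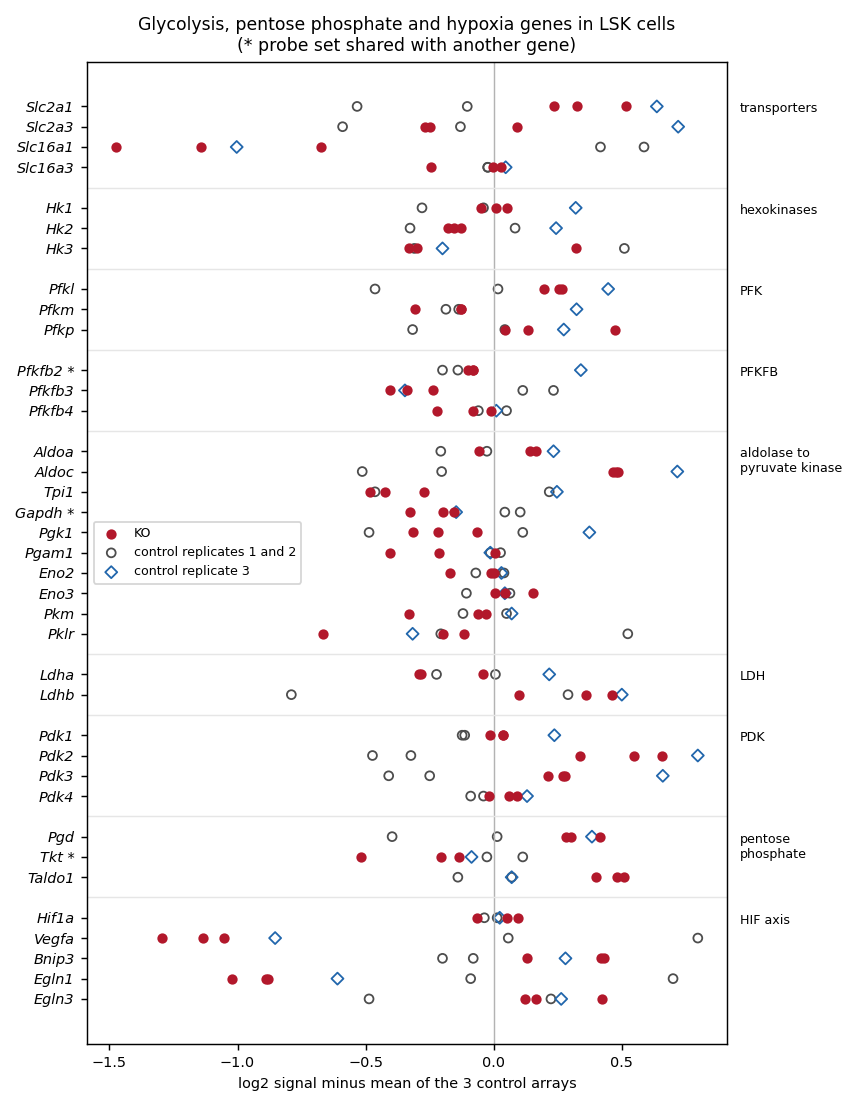
Log2 signal of each array minus the mean of the 3 control arrays for 37 genes ordered by role, with KO arrays as filled circles, control replicates 1 and 2 as open circles and control replicate 3 as diamonds. Vegfa, Egln1 and Slc16a1 have the KO arrays farthest to the left, and control replicate 3 is the highest of the 6 arrays for 18 of the 34 genes with their own probe set.

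In the HIF axis, the gene of the oxygen-regulated subunit itself, Hif1a, gave nearly the same signal in all samples. It was at 10.43, 10.59 and 10.55 in KO and at 10.51, 10.46 and 10.52 in control LSK cells, and the log2 fold change was 0.03 (standard error 0.10). HIF-1α is controlled mainly through the stability of the protein, which the arrays do not measure.

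Vegfa, which encodes the angiogenic factor VEGF-A, had the largest change among the 34 genes. Its log2 signal was 6.84, 6.68 and 6.92 in KO and 8.77, 8.03 and 7.12 in control LSK cells. The groups did not overlap, with the KO arrays close together and the controls spread over more than 1 log2 unit, replicate 3 being the nearest to the KO cells. The means of 6.81 ± 0.12 for KO and 7.97 ± 0.83 for control (SD, n = 3 each) correspond to a 2.24-fold lower signal in KO (log2 fold change -1.16, standard error 0.38). The unadjusted p from limma was 0.0194 and the adjusted p was 0.362. Without control replicate 3 the log2 fold change was -1.59 (adjusted p = 0.0238), without control replicate 1 it was -0.76, and without KO replicate 2 it was -1.09 and limma's unadjusted p rose to 0.0604.

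Egln1 encodes PHD2, the main oxygen-sensing prolyl hydroxylase. Its log2 signal was 10.08, 10.21 and 10.22 in KO and 11.80, 11.01 and 10.49 in control LSK cells. Again all KO arrays lay below all controls, and control replicate 3 was the lowest control. The means of 10.17 ± 0.078 and 11.10 ± 0.66 (SD, n = 3 each) correspond to a 1.91-fold lower signal in KO (log2 fold change -0.93, standard error 0.31). Limma gave an unadjusted p of 0.0202 and an adjusted p of 0.363. The log2 fold change was -1.24 without control replicate 3 (adjusted p = 0.0502) and -0.58 without control replicate 1. Without KO replicate 1 it was -0.89, with an unadjusted p of 0.0601 from limma.

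The related hydroxylase gene Egln3 (PHD3) did not share this pattern. It was at 10.43, 10.13 and 10.17 in KO and at 9.52, 10.23 and 10.27 in control cells, so that the groups overlapped, and its log2 fold change was 0.24 (standard error 0.22). Bnip3, a mediator of mitophagy that is induced by HIF, was at 7.92, 8.21 and 8.22 in KO and at 7.59, 7.71 and 8.07 in control cells. Its log2 fold change was 0.33 (standard error 0.16), and 0.47 without control replicate 3 (adjusted p = 0.170 from limma). Both Egln1 and Bnip3 carry core matches in the stretches above.

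Among the transporters, Slc16a1, the gene of the lactate and pyruvate carrier MCT1, was lower in KO. It was at 8.15, 7.82 and 8.62 in KO and at 9.71, 9.88 and 8.29 in control cells. Control replicates 1 and 2 were more than 1 log2 unit above every KO array, while control replicate 3 lay within the KO range, so that the groups overlapped. The means were 8.20 ± 0.40 and 9.29 ± 0.87 (SD, n = 3 each), a 2.14-fold lower signal (log2 fold change -1.10, standard error 0.44). The unadjusted p from limma was 0.0408 and the adjusted p was 0.435. Without control replicate 3 the log2 fold change was -1.60 (adjusted p = 0.0261). The unadjusted p from limma was 0.0949 to 0.127 when KO replicate 1 (-1.07), KO replicate 2 (-0.91), control replicate 1 (-0.89) or control replicate 2 (-0.80) was left out.

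The other lactate carrier gene, Slc16a3 (MCT4), differed by -0.07 on the log2 scale (standard error 0.12). Slc2a1, which encodes the glucose transporter GLUT1, was at 9.06, 9.25 and 8.97 in KO and at 8.63, 8.20 and 9.37 in control cells. Here the KO arrays lay above control replicates 1 and 2 and below control replicate 3. The log2 fold change was 0.36 (standard error 0.29), and 0.68 without that control (adjusted p = 0.108 from limma). Slc2a3 (GLUT3) had -0.14 (standard error 0.32) with all arrays and 0.22 without control replicate 3, in which it was 1.08 log2 units above the mean of the other controls.

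**Figure D3:**
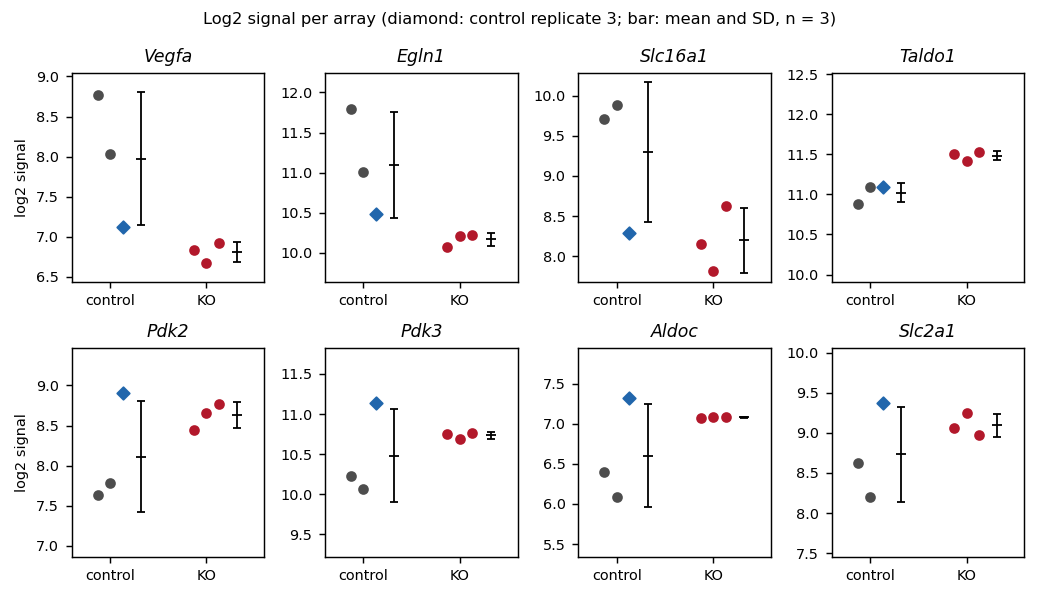
Log2 signal of 8 genes in each of the 6 arrays, with circles for single arrays, diamonds for control replicate 3 and bars for the mean and SD of 3 arrays; each panel spans the same number of log2 units but starts above 0. Vegfa and Egln1 have all KO arrays below all controls and Taldo1 has them above, whereas in Pdk2, Pdk3, Aldoc and Slc2a1 the KO arrays lie between control replicate 3 and the other controls.

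The genes of the upper glycolytic steps had small differences. The hexokinase genes Hk1, Hk2 and Hk3 ranged from -0.15 (Hk2) to 0.0033 (Hk1) on the log2 scale, and all 3 overlapped between the groups. Hk2 alone reached p under 0.05 when an array was left out (-0.32 without control replicate 1, unadjusted p = 0.0443 from limma). The phosphofructokinase genes ranged from -0.19 for Pfkm, the muscle-type subunit, to 0.24 for Pfkl, the liver-type subunit, with 0.22 for Pfkp. Without control replicate 3 Pfkl was at 0.46 (adjusted p = 0.234 from limma). Of the PFKFB enzymes, which set the level of the activator fructose 2,6-bisphosphate, Pfkfb3 had -0.33 (standard error 0.17) and Pfkfb4 -0.10. Pfkfb3 was at 8.62, 8.55 and 8.72 in KO and at 9.07, 9.19 and 8.61 in control cells, and its log2 fold change was -0.50 without control replicate 3 (adjusted p = 0.0980 from limma). The probe set of Pfkfb2, shared with C4bp-ps1, had -0.087.

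From aldolase to pyruvate kinase, 9 genes had a probe set of their own. Their log2 fold changes ran from -0.39 for Tpi1, the triosephosphate isomerase, to 0.48 for Aldoc, and 0 of the 9 passed an unadjusted p under 0.05. Tpi1 was at 10.93, 10.78 and 10.72 in KO and at 11.42, 10.74 and 11.45 in control cells, so that the single low control, replicate 2, lay within the KO range. Without that array the log2 fold change was -0.63 (unadjusted p = 0.00279, adjusted p = 0.229 from limma). Pklr, the liver and red cell pyruvate kinase, had -0.33 (standard error 0.26), and Pkm, the form of most tissues, had -0.14 (standard error 0.13). Aldoa, Eno2 and Eno3 were between -0.06 and 0.083. Aldoc was at 7.07, 7.08 and 7.09 in KO and at 6.40, 6.09 and 7.32 in control cells. Its KO arrays were almost identical, and control replicate 3 stood about 1 log2 unit above the other controls. The log2 fold change of Aldoc was 0.48 (standard error 0.30) with all arrays and 0.84 without control replicate 3 (adjusted p = 0.0336 from limma).

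Several of these enzymes have processed pseudogenes, and their probe sets were inspected singly. Pgam1, a phosphoglycerate mutase, had -0.20 (standard error 0.13) on its own probe set, where all controls were between 11.14 and 11.18 and the KO arrays at 11.16, 10.94 and 10.75. On the probe sets shared with Gm8910 and with Pgam1-ps2 it had -0.49 (unadjusted p = 0.0116, adjusted p = 0.324 from limma) and -0.28, and all KO arrays lay below all controls on each. Gapdh, often used as a reference gene, was read by a probe set shared with Gm7336 (-0.23, standard error 0.12) and by another shared with Gapdh-ps15 (-0.22, standard error 0.11), each with all KO arrays below all controls. Its signals on the former were 17.70, 17.53 and 17.66 in KO and 17.96, 17.90 and 17.71 in control cells. There the log2 fold change of Gapdh was -0.30 without control replicate 3 (unadjusted p = 0.0470, adjusted p = 0.285 from limma). Under quantile normalization of all arrays it was -0.26 (unadjusted p = 0.0341, adjusted p = 0.396 from limma). Pgk1 had -0.20 on its brightest probe set, whose identifier places it on chromosome 12 although the gene is on chromosome X, and -0.04 on the probe set of chromosome X. The former reached -0.44 without control replicate 2 (unadjusted p = 0.0249 from limma). Which copy these shared signals came from cannot be told apart.

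At the pyruvate branch point, Ldha and Ldhb, the subunits of lactate dehydrogenase, had -0.21 (standard error 0.15) and 0.31 (standard error 0.33). Ldha was at 9.71, 9.96 and 9.72 in KO and at 10.01, 9.78 and 10.22 in control cells, so that the groups overlapped. The 4 PDK genes all had log2 fold changes above 0, from 0.02 for Pdk1 to 0.51 for Pdk2, but none passed an unadjusted p under 0.05 with all arrays. Pdk2 was at 8.45, 8.66 and 8.77 in KO and at 7.64, 7.79 and 8.91 in control cells. Pdk3 was at 10.75, 10.69 and 10.76 in KO and at 10.23, 10.07 and 11.14 in control cells. For both kinases the KO arrays lay above control replicates 1 and 2 and below control replicate 3. Pdk2 had 0.51 (standard error 0.33) with all arrays and 0.91 without control replicate 3 (adjusted p = 0.0305 from limma). Pdk3 had 0.25 (standard error 0.27) and, without that array, 0.58 (adjusted p = 0.0617 from limma). Pdk4 had a log2 fold change of 0.043, and it was, with Eno2, 1 of 2 genes below the median probe set signal.

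In the pentose phosphate pathway, Taldo1, the transaldolase of the non-oxidative branch, had the smallest p of the 34 genes. Its log2 signal was 11.50, 11.42 and 11.53 in KO and 10.88, 11.09 and 11.09 in control LSK cells. All KO arrays were above all controls, and control replicate 3 was level with replicate 2. The means were 11.48 ± 0.057 and 11.02 ± 0.12 (SD, n = 3 each), a 1.38-fold higher signal in KO (log2 fold change 0.46, standard error 0.11). Limma gave an unadjusted p of 0.00464 and an adjusted p of 0.267. Of these 4 genes Taldo1 alone stayed at an unadjusted p under 0.05 in all 15 alternatives that were run, with 0.39 to 0.50 when single arrays were left out.

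Pgd, the NADPH-producing 6-phosphogluconate dehydrogenase of the oxidative branch, was at 8.99, 9.10 and 8.97 in KO and at 8.29, 8.70 and 9.07 in control cells. Its log2 fold change was 0.33 (standard error 0.20), and 0.53 without control replicate 3 (adjusted p = 0.157 from limma). Tkt, the transketolase that works with transaldolase, was measured only by a probe set shared with the microRNA gene Mir3076, at 11.80, 11.49 and 11.87 in KO and at 12.12, 11.98 and 11.92 in control cells. There the KO arrays lay below the controls, at a log2 fold change of -0.29 with a standard error of 0.14 (adjusted p = 0.520 from limma). Transaldolase and transketolase signals thus differed in sign.

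Many of these values changed when control replicate 3 was left out. This array was the highest of the 6 arrays for 18 of the 34 genes (52.9%), compared with 21.8% of all probe sets and 22.1% of those above the median signal, and the mean signal of the 34 genes was 8.96 in this array against 8.78 and 8.72 in the other controls and 8.75 to 8.79 in KO. It was nearer to the KO mean than to that of the other controls for 23 genes (67.6%, compared with 57.0% of all probe sets and 61.9% of those above the median signal). Without this array, 8 genes were higher (23.5%, against 9.58% of all probe sets) and 4 were lower (11.8%, against 7.46%) at an unadjusted p under 0.05 from limma. At an adjusted p under 0.05, Pdk2 and Aldoc were higher (5.88%, against 2.15%) and Vegfa and Slc16a1 were lower (5.88%, against 1.39%). Because the array was singled out from these same data, these calls are descriptive. All KO arrays were above control replicates 1 and 2 for 10 genes (29.4%, against 16.7% of all probe sets), namely Pdk1, Pdk2, Pdk3, Pdk4, Pfkl, Bnip3, Pgd, Slc2a1, Taldo1 and Aldoc, and below them for 4 (11.8%, against 16.3%), namely Vegfa, Slc16a1, Egln1 and Pfkfb3. Most of the 34 genes are bright, and for the 32 above the median signal the shares without control replicate 3 are nearer to those of all probe sets above the median. All KO arrays lay above the remaining controls for 28.1% of the 32 against 24.3%, and below them for 12.5% against 18.3%. At an unadjusted p under 0.05 from limma, 25% against 16% were higher and 12.5% against 11% were lower, and at an adjusted p under 0.05 it was 6.25% against 3.99% and 6.25% against 2.56%. The median log2 fold change of the 34 genes was then 0.06. The 26 genes with a core match in the promoter had a median of 0.04 with all arrays and the 7 without one had -0.14. Single genes ran from -1.10 to 0.51 with a core match and from -1.16 to 0.083 without one, and a link between core and change was not tested.

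**Figure D4:**
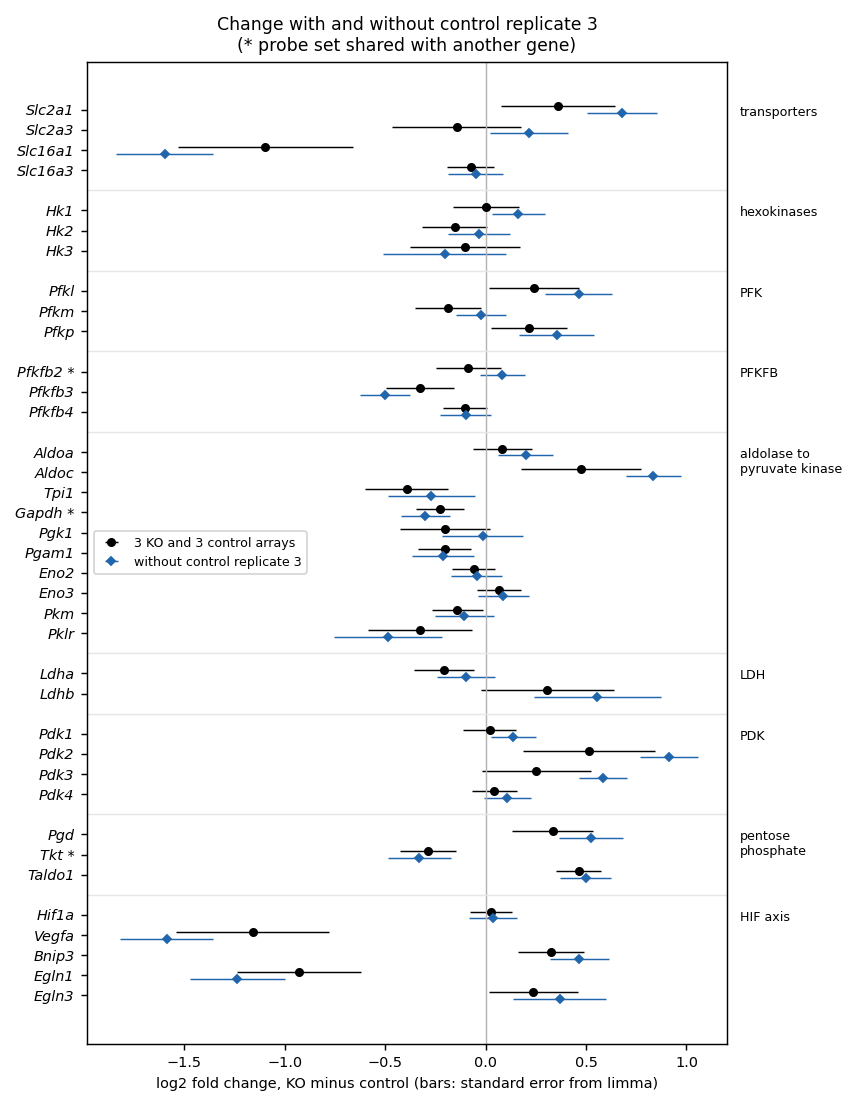
Log2 fold change of KO minus control for 37 genes with all 6 arrays (circles) and without control replicate 3 (diamonds), with bars for limma's standard error. Pdk2 moves from 0.51 to 0.91, Aldoc from 0.48 to 0.84, Slc16a1 from -1.10 to -1.60 and Vegfa from -1.16 to -1.59, while Taldo1 stays near 0.5.

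Other genes of the same pathways were examined next to these. The shares of all probe sets at an unadjusted p under 0.05 from limma, 5.09% higher and 5.80% lower with all arrays and 9.58% and 7.46% without control replicate 3, are the background of the counts that follow. Most genes of each list but that of the transporters lie above the median signal. Among all probe sets above it, the shares were 8.03% and 8.21% with all arrays, and 16% and 11% without control replicate 3. Of 20 further genes of glycolysis and gluconeogenesis, 18 were measured, with a median log2 fold change of 0.085, of which 3 (16.7%) were higher and 0 lower at an unadjusted p under 0.05. The higher genes numbered 5 (27.8%) without control replicate 3, and 1 or 2 without each of the other arrays. The 3 were Fbp1, the fructose-1,6-bisphosphatase of gluconeogenesis (0.70, standard error 0.20, adjusted p = 0.316 from limma), Galm, a galactose mutarotase (0.58), and G6pc3, a glucose-6-phosphatase (0.35). Fbp1 was at 8.02, 7.73 and 7.35 in KO and at 7.22, 6.80 and 6.99 in control cells, without overlap, and stayed at an unadjusted p under 0.05 with any 1 array left out. Galm was at 0.81 without control replicate 3 (adjusted p = 0.0359 from limma), but did not pass an unadjusted p under 0.05 without KO replicate 2 or 3 or control replicate 1 or 2 (0.44 to 0.58), nor did G6pc3 without KO replicate 1 or 3 or control replicate 1 or 2 (0.28 to 0.32). Of 9 further pentose phosphate and ribose genes, 0 passed in either direction with all arrays, and their median was -0.16. Without control replicate 3 the median was -0.078, and 2 were higher (Shpk and Rpe, 0.51 and 0.37) and 2 were lower (Pgls and Rpia, -1.09 and -0.62) at an unadjusted p under 0.05. Without control replicate 1 or 2, 1 was lower. Pgls, the lactonase between G6pdx and Pgd, was at 9.87, 9.39 and 10.14 in KO and at 10.66, 11.11 and 9.82 in control cells, with -0.73 with all arrays (adjusted p = 0.516 from limma), control replicate 3 lying within the KO range. The 9 further genes of glucose transporters and their inhibitor Txnip included 0 that passed, with a median of 0.03, and 5 of the 9 were below the median signal.

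Of 16 genes of pyruvate and lactate handling, 15 were measured, with a median of 0.21, of which 2 (13.3%) were higher and 1 (6.67%) was lower at an unadjusted p under 0.05. Without control replicate 3 the median was 0.36, and 8 (53.3%) were higher and 1 lower, the further ones being Mpc1, Pdhb, Pdhx, Dld, Pdp1 and Pdpr (0.36 to 0.70, each with an adjusted p above 0.05). Without each of the other arrays 1 was higher and 1 lower. Slc16a7, which encodes the lactate carrier MCT2, was at 6.91, 6.76 and 6.86 in KO and at 7.50, 7.81 and 7.26 in control cells. Like Vegfa and Egln1 it had all KO arrays below all controls, at a log2 fold change of -0.68 with a standard error of 0.16 (adjusted p = 0.263 from limma). Bsg, the chaperone that brings MCT1 and MCT4 to the cell surface, had 0.48 (standard error 0.20), a sign opposite to that of Slc16a1. Ldhd, the mitochondrial D-lactate dehydrogenase, had 0.44 (standard error 0.11) and all KO arrays above all controls. Slc16a7 and Ldhd stayed at an unadjusted p under 0.05 with any 1 array left out, while Bsg stayed there only without control replicate 3 (0.70, adjusted p = 0.0451 from limma, and 0.37 to 0.52 without each of the others).

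Of 15 measured regulators of HIF out of 16, 1 (6.67%) was higher and 0 were lower at an unadjusted p under 0.05, and the median was 0.19. All KO arrays were above all controls for 4 (26.7%, against 6.15% of all probe sets) and below them for 0. The 4 were Epas1, Arnt2, Ep300 and Elob, at log2 fold changes of 0.19 to 0.27, with Epas1 and Arnt2 below the median signal. Without control replicate 3 the median was 0.22 and 5 (33.3%) were higher, with Epas1, Arnt, Vhl and Cul2 at 0.30 to 0.42, whereas 0 were higher without KO replicate 1, control replicate 1 or control replicate 2, and 1 was lower without control replicate 1. The 1 gene at that p with all arrays was Cited2, an inhibitor that competes with HIF-1α for the coactivators CBP and p300. It was at 12.45, 12.42 and 11.79 in KO and at 9.52, 9.98 and 12.11 in control cells, so that control replicate 3 lay among the KO arrays. Its log2 fold change was 1.68 (standard error 0.64, adjusted p = 0.420 from limma), and 2.47 without that array (adjusted p = 0.00942). Its unadjusted p was above 0.05 without KO replicate 1 or 2 or control replicate 1 or 2, with 1.18 to 1.58. Of 30 further genes induced by hypoxia, 28 were measured, with a median of 0.03, of which 1 (3.57%) was higher and 3 (10.7%) were lower at an unadjusted p under 0.05. This balance turned without control replicate 3 to 6 higher (21.4%) and 1 lower (3.57%), with Ndrg1 at 1.15 (adjusted p = 0.0198 from limma) and Bhlhe40 at 0.69 (adjusted p = 0.0453), and the lower genes numbered 1 without KO replicate 1 or 2, and 2 without control replicate 1 or 2. Without KO replicate 2 the higher genes numbered 0. Tfrc, the transferrin receptor, had -1.28 (standard error 0.32, adjusted p = 0.278 from limma), Ak4, a mitochondrial adenylate kinase, -0.51, P4ha1, a collagen prolyl hydroxylase subunit, -0.25, and Narf 0.58. Tfrc stayed at an unadjusted p under 0.05 with any 1 array left out, and was at -1.66 without control replicate 3 (adjusted p = 0.0101 from limma), but P4ha1 did so in no case. Ak4 did not without KO replicate 1 or 2 or control replicate 3 (-0.55 to -0.35), nor Narf without KO replicate 2 or control replicate 1 or 2 (0.44 to 0.53). Hypoxia-induced genes thus lay on both sides of 0, as did Vegfa and Bnip3.

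**Figure D5:**
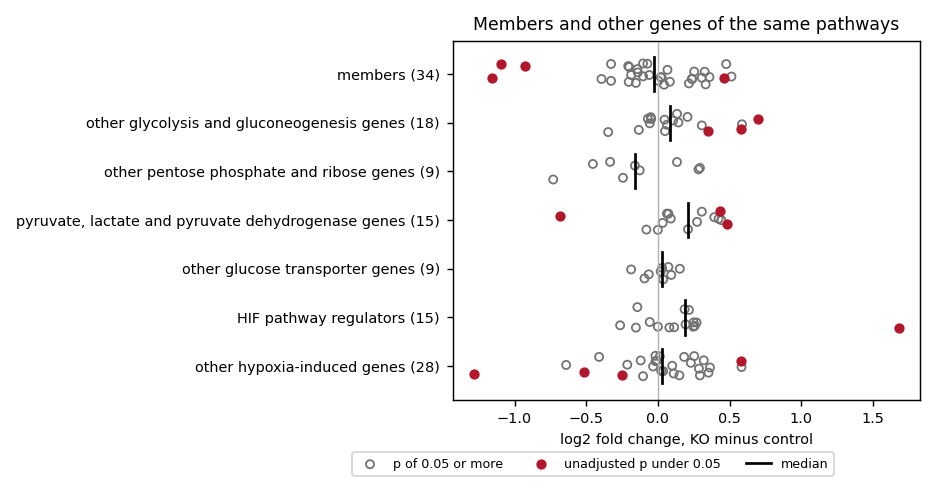
Log2 fold change of KO minus control for the 34 genes and for 6 lists of further genes of the same pathways, with 1 point per gene, filled where the unadjusted p from limma was under 0.05, and black lines at the medians. The medians lie between -0.16 and 0.21, and Cited2 is the point at 1.68.

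Other features of the samples moved with the groups or with control replicate 3. The 11 measured of 12 proliferation genes averaged 10.79 to 11.21 log2 units in KO and 11.65 to 13.12 in control cells, with control replicate 3 at 11.65, and all 11 were lower in KO at an unadjusted p under 0.05. The 16 measured of 18 interferon response genes averaged 9.44 to 9.65 in KO and 7.73 to 9.47 in control cells, with control replicate 3 at 9.47. LSK markers (9 of 11) averaged 10.59 to 10.78 in KO and 10.21 to 11.55 in control cells, with control replicate 3 at 11.55. Their log2 fold changes ran from -1.22 for Flt3, with all KO arrays below all controls, to 0.84 for Cd34. These were the 1 lower and the 1 higher LSK marker at an unadjusted p under 0.05 from limma. Markers of mature granulocytes (14 of 14) averaged 8.96 to 9.96 in KO and 7.16 to 9.38 in control cells, the lowest in control replicate 3. These averages join genes that lay far apart, from -2.15 for Ngp to 6.35 for Chil3 in log2 fold change, with 4 of 14 higher and 0 lower at an unadjusted p under 0.05, and 2 of them, Mmp9 and Cd177, were below the median signal. Erythroid markers (11 of 12) averaged 7.57 to 8.44 in KO and 7.93 to 8.98 in control cells, and megakaryocyte markers (9 of 10) 8.22 to 8.5 and 7.21 to 8.71. Lymphocyte markers (9 of 10) averaged 8.95 to 10.54 and 9.35 to 11.37, and monocyte markers (9 of 10) 7.52 to 8.0 and 7.43 to 8.85. Control replicate 3 was the highest control for megakaryocyte markers (8.71, against 7.21 and 7.40). It was the lowest control for lymphocyte markers (9.35, against 10.87 and 11.37) and for monocyte markers (7.43), and lay between the other controls for erythroid markers (8.44). The log2 fold changes ran from -3.66 to 0.72 for erythroid, -0.30 to 1.98 for megakaryocyte, -5.80 to 1.16 for lymphocyte and -1.77 to 1.18 for monocyte markers, with 1 gene of each list higher at an unadjusted p under 0.05, and 1 lower in each but the megakaryocyte list. Slc4a1, Gp6, C1qa and C1qb were the markers of these lists below the median signal, and none can be read as 0 on an array. Their part in the differences of the metabolic genes was not tested. In these bulk samples, fewer cells of a type and less RNA per cell cannot be told apart.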

How the data were processed

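Total RNA of sorted LSK cells, 3 KO and 3 control samples grouped by the sample titles, was hybridized to MTA-1.0 arrays. The authors normalized the arrays with SST-RMA and deposited log2 signals, which were used unchanged, so that probe-specific brightness remains and levels of different genes cannot be compared. The submitters' processing notes name Affymetrix Expression Console, RMA and Transcriptome Analysis Console. The build behind the probe sets is not given in the sources used here. Arrays have no read depth, and their number limits the precision: the median SD was 0.153 (KO) and 0.190 (control), and an exact permutation test of 3 against 3 arrays cannot go below 0.1. The table has 0 unused per-sample columns.

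Of 65956 probe sets, 31292 name 1 gene, 1522 several and 33142 none in GEO's platform annotation, and 1212 names were updated through RefSeq. All were fitted without a filter by limma 3.58.1 (R 4.3.3; linear model with empirical Bayes, two-sided, no block), with Benjamini-Hochberg adjustment over all. Figures used matplotlib 3.10.9 in Python 3.11.15.

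The genes and lists were chosen with earlier results of these data known. Array values were to be given for genes at an unadjusted p under 0.05 or without overlap beyond 0.5 log2 units, and the list genes named are up to 4 at that p; the array values of the other genes, the separate reading of shared probe sets and the naming of Pgls and of list genes without control replicate 3 were added after their values were seen. The alternatives were quantile normalization, median centring, probe sets above the median, averaging the probe sets of a gene, trended and robust priors, array weights, blocks by number, the methods' t-test, and leaving out each array (for the lists and their genes, added after their values were seen).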

Additional observations from a re-analysis of the deposited data

How the results depend on the processing

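The count of genes at an unadjusted p under 0.05 depended on the weight given to single arrays. The 1 gene higher in KO became 5 with array weights, which gave control replicate 3 the lowest weight (0.523), and 6 with a block by the number in the sample description. In that block KO replicate 2 and control replicate 3 share no number with the other group, so that neither enters the comparison. Leaving out single arrays gave 1 to 8 higher genes, 1 to 4 lower genes, and 0 to 4 at an adjusted p under 0.05, the highest counts of higher and adjusted calls without control replicate 3. The 3 lower genes became 0 with the methods' t-test. Genes with all KO arrays above the controls numbered 1 to 10 and below them 3 to 8 when an array was left out, a criterion that fewer arrays meet more easily, and the median log2 fold change was -0.06 to 0.063. The counts at p under 0.05 stayed within 1.5 times under quantile normalization, median centring, the filter on dim probe sets, averaging the probe sets of a gene, and trended and robust priors.

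KO and control samples with the same replicate number in the title had correlations of 0.16, -0.17 and -0.17 between their deviations from the group means. The numbers in the sample descriptions, whose meaning is not explained, are shared by KO replicate 1 with control replicate 1 (0.16) and KO replicate 3 with control replicate 2 (0.16). The remaining pair, KO replicate 2 with control replicate 3, shares no number and had 0.28, the highest of all pairs. Whether the samples were paired was not tested. With a replicate block by the title numbers, 1 gene was higher and 2 were lower at p under 0.05, and Slc16a1 was no longer among them (unadjusted p = 0.0831 from limma). Without blocks, Hk1 turned to -0.0072 under quantile normalization. Under the block by description number, which leaves few arrays for the comparison, Pfkm was at 0.035, Eno2 at 0.01, Slc2a3 at 0.10 and Pfkfb2 at 0.08. Genes whose sign changed when 1 array was left out were Hk1 (-0.14 to 0.16), Hk3 (-0.32 to 0.15), Aldoa (-0.02 to 0.20), Ldhb (-0.088 to 0.56), Slc2a3 (-0.44 to 0.22), Slc16a3 (-0.12 to 0.012), Pdk1 (-0.042 to 0.14), Pdk4 (-0.0017 to 0.11), Pfkfb2 (-0.19 to 0.083), Hif1a (-0.0067 to 0.073) and Egln3 (-0.0067 to 0.37). Of the other single-gene values under the alternatives apart from leaving out an array, 312 kept their sign and call, 12 gained the call and 4 lost it. The cause of these shifts was not tested.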
